A study of Mus musculus with 8 samples.

Results

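The genes described here are the ligands, receptors, binding proteins and imprinted growth genes of the fetal insulin-like growth factor (IGF) axis: Igf1, Igf2, H19, Igf1r, Igf2r, Igfbp2, Igfbp3, Igfbp4, Igfbp5 and Dlk1. They were chosen by name, as members of the axis, with earlier results of these data known, and are 10 of the 27179 genes counted and 10 of the 18104 that passed the filter on low counts, so every one of them was tested. They were followed across 8 mRNA-seq libraries of mouse embryonic spine, taken whole at E18.5. The tested genotype is the Pax1-Enh knockout (KO), and the groups were male KO, male wild type (WT), female KO and female WT, with 2 libraries each. Pax1 is a paired-box factor active in the sclerotome, from which vertebrae and discs form, and by the series title the stretch removed lies at Pax1 and is tied to adolescent idiopathic scoliosis with a sex bias. The sources used here give neither strain nor litter, nor whether each library came from its own embryo, so p-values measure the spread between these libraries, which may be technical. A whole spine holds bone, cartilage, muscle, nerve, fat and vessels, and in such a sample fewer cells of a type and less RNA per cell cannot be told apart.

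IGF2 and IGF1 are secreted ligands that drive growth through the receptor tyrosine kinase IGF1R, IGF2 being the main fetal form. IGF2R, the cation-independent mannose 6-phosphate receptor, takes IGF2 up for breakdown in lysosomes, and the IGFBP proteins bind the ligands outside the cell and set how much is free. Several of these genes are imprinted in the mouse, meaning that 1 parental allele is silent: Igf2 and Dlk1 are expressed from the paternal allele, H19 and Igf2r from the maternal allele. The counts used here do not separate the parental alleles.

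The libraries held 35181518 to 67575728 counts, and all 4 KO libraries were deeper than all 4 WT libraries, so depth and genotype cannot be told apart. Pax1 itself had 28.3 and 18.9 CPM (counts scaled to a common library total) in male KO against 20.4 and 17.0 CPM in male WT. In females it had 30.4 and 19.9 CPM in KO against 27.0 and 18.6 CPM in WT. The sources used here give no coordinates for the deletion, and the counts of Pax1 do not check the genotype. Some libraries stood apart. The mitochondrial genome took 4.56% and 15.6% of the counts in male KO, 18.3% and 20.9% in male WT, 13.6% and 4.66% in female KO, and 5.55% and 7.27% in female WT. Summed over 13 adipocyte markers, male WT 1 had 5924 CPM and female WT 2 had 6201 CPM, where the other 6 libraries had 417 to 1147 CPM. In this sum all 4 KO libraries lay below all 4 WT libraries. Pancreas markers reached 1947 CPM in female WT 1 and at most 8.09 CPM elsewhere. Adrenal markers summed to 483 CPM in male WT 2, 483 CPM in female KO 2 and 308 CPM in female WT 1, and to 19.6 to 53.4 CPM elsewhere. In males the anterior Hox genes, which mark the neck end of the axis, summed to 57.3 to 65.0 CPM in KO against 127 to 156 CPM in WT, and the posterior ones to 97.2 to 105 CPM in KO against 64.9 to 75.9 CPM in WT. In females the anterior Hox genes summed to 84.4 to 86.7 CPM in KO against 96.4 to 99.9 CPM in WT, and the posterior ones to 81.7 to 136 CPM in KO against 67.8 to 69.3 CPM in WT. All 4 KO libraries thus lay below all 4 WT libraries in the anterior sum and above them in the posterior sum. Like depth, the adipocyte and Hox sums went with genotype, and their part in the differences was not tested. edgeR called 0 of 18104 genes (0%) for the KO effect in males, in females and over both sexes at an adjusted p under 0.05, with 2684, 1679 and 1237 genes at an unadjusted p under 0.05. DESeq2 called 481 (2.66%) in males, 144 (0.811%) in females and 141 (0.779%) over both, and limma voom called 0 in each.

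Igf2 and H19 lie 72.6 kb apart on the minus strand of chromosome 7 (mm10), Igf2 at 142650768 to 142666816 and H19 at 142575530 to 142578146. Each is the host of a microRNA, miR-483 in Igf2 and miR-675 in H19. Their mature forms, from RefSeq (GRCm38.p6), are shown because they are further products of the pair of genes with the highest counts here; the seed, bases 2 to 8, is in capitals.
mmu-miR-675-5p: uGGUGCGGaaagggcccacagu
mmu-miR-675-3p: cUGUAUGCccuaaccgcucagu
mmu-miR-483-5p: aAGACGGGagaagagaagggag
mmu-miR-483-3p: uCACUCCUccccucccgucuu
No seed is shared among the 4. The mRNA libraries do not measure mature miRNAs. The Mir483 entry collected 4 to 23 counts per library and 115 in all, and the Mir675 entry had 0 counts in every library, where 3 counts would be 0.0392 to 0.0831 CPM. The sources used here do not say how reads shared by a miRNA and its host were assigned. Igf2os, a non-coding RNA on the opposite strand that overlaps Igf2, had 25.3 to 63.6 CPM.

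Elsewhere, Igf1r lies on chromosome 7 at 67952257 to 68233668, Igf1 on chromosome 10 at 87858265 to 87937047, Dlk1 on chromosome 12 at 109452485 to 109463336 and Igfbp4 on chromosome 11 at 99040005 to 99052655, all on the plus strand. Igfbp2 (72824480 to 72852474, plus strand) and Igfbp5 (72858065 to 72874865, minus strand) are neighbours on chromosome 1, and Igfbp3 lies on the minus strand of chromosome 11 at 7206086 to 7215498. The counts are of whole genes.

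The other imprinted locus that the results turn on is Igf2r on chromosome 17 (12682406 to 12769706, minus strand). Airn, a long non-coding RNA known in the mouse to be transcribed from the paternal allele and to silence Igf2r there, starts inside the Igf2r gene at 12741311 on the plus strand, and the annotated genes overlap over 28.4 kb. The windows around both starts (250 bases before to 50 after, RefSeq, GRCm38.p6, each on its gene's strand) are shown because Igf2r had the widest spread between libraries of the 10 genes and Airn moved opposite to it. Capitals mark GGGCGG, known as the GC box, CACGTG, a form of the E-box, and TATAAA, the core of the TATA box, on either strand.
Igf2r, chr17:12769657-12769956, minus strand: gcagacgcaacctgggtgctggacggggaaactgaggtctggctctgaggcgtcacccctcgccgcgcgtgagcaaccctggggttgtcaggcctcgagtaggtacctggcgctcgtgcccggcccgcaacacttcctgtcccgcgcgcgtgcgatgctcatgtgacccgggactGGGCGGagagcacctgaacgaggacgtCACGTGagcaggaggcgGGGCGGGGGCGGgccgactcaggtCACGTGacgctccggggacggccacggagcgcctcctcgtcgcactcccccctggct
Airn, chr17:12741061-12741360, plus strand: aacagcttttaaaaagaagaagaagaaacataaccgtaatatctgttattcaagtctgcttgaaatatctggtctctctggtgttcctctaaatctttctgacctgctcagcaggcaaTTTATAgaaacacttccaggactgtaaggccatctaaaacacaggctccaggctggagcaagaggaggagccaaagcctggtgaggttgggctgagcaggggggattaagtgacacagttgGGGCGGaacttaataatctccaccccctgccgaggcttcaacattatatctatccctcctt
The Igf2r window held 34 CpG dinucleotides, more than 92.3% of 32851 such windows, whose median was 7, and the Airn window held 3, more than 23.3% of them. The Igf2r window held GGGCGG 3 times and CACGTG 2 times. The Airn window held GGGCGG 1 time and TATAAA 1 time, read on the opposite strand as TTTATA. Of all windows, 35.7% held GGGCGG, 7.15% held CACGTG and 13.6% held TATAAA on either strand, and the matches do not overlap one another. Of the 10 members, 9 had at least 1 promoter window in that table and H19 had none.

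Per kilobase of exon, H19 and Igf2 stood above the other 8 genes in every library. H19 averaged 9454 CPM per kilobase over the 8 libraries, Igf2 1305, Dlk1 258, Igfbp5 102, Igfbp4 73.7, Igfbp2 72.7, Igfbp3 53.1, Igf1 19.3, Igf2r 17.9 and Igf1r 5.17, all per-length levels. H19 exceeded Igf2 and Igf2 exceeded Dlk1 in 8 of 8 libraries with no overlap of their ranges, and the same held for Igfbp3 over Igf1. Dlk1 over Igfbp5, Igfbp5 over Igfbp4 and Igf2r over Igf1r held in 8 of 8 libraries although the ranges overlapped. Igfbp4 exceeded Igfbp2 in 3 of 8 libraries and Igf1 exceeded Igf2r in 4 of 8, so neither pair has an order beyond its spread. Igfbp2 exceeded Igfbp3 in 7 of 8. H19 took 1.41% to 2.70% of all counts and was the most highly counted nuclear gene in 7 libraries and the next highest in male KO 1.

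**Figure D1:**
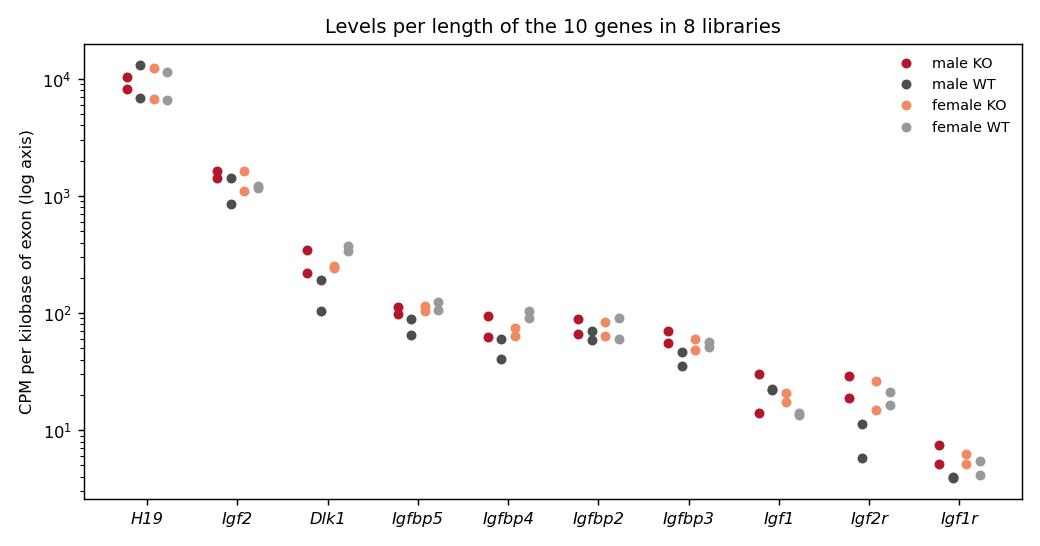
Level of each of the 10 genes in CPM per kilobase of exon (log axis), with 1 point per library and colours for male KO, male WT, female KO and female WT. H19 (mean 9454) and Igf2 (mean 1305) lie above every other gene in every library, and Igf1r (mean 5.17) lies lowest.

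Of the ligands, Igf2 showed no genotype difference beyond the spread between libraries. It had 7429 and 8632 CPM in male KO against 7422 and 4479 CPM in male WT, with 8600.2 and 5775 CPM in female KO against 6087 and 6386 CPM in female WT. The male groups were barely separated, male WT 2 lay lowest of all 8, and the female groups overlapped. In males KO over WT gave a log2 fold change of 0.43 (standard error, SE, 0.53; edgeR adjusted p = 0.702), and in females 0.20 (SE 0.53, adjusted p = 0.885). Igf1, the ligand that carries growth on after birth, had 139 and 299 CPM in male KO against 220.1 and 221 CPM in male WT. In females it had 206 and 171 CPM in KO against 139.5 and 133 CPM in WT. The male KO libraries thus lay on either side of the male WT pair, and the female groups did not overlap. In females the log2 fold change of Igf1 was 0.47 (SE 0.35, adjusted p = 0.627), a fold of 1.38 with a 95% interval of 0.793 to 2.42. In males it was -0.010 (SE 0.35), a sign that turned to 0.023 with DESeq2 size factors and 0.013 with upper-quartile scaling. Igf2 exceeded Igf1 per length by 38.2 times in male WT 2 and by 101 times in male KO 1, with the other 6 libraries in between.

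H19, the maternally expressed non-coding RNA next to Igf2, differed more within groups than between them. It had 18863 and 23528 CPM in male KO against 30163 and 15527 CPM in male WT, with 28109 and 15336 CPM in female KO against 15034 and 26327 CPM in female WT. The libraries of male WT, of female KO and of female WT each paired a low with a high value. The low ones, male WT 2, female KO 2 and female WT 1, were the libraries with most adrenal markers. That match was seen after the values were known and was not tested. H19 gave log2 fold changes of -0.11 in males (SE 0.71) and 0.071 in females (SE 0.71), with 95% intervals of the fold from 0.301 to 2.86 and from 0.341 to 3.24. The ratio of H19 to Igf2 counts was 2.54 and 2.73 in male KO against 4.06 and 3.47 in male WT. In females it was 3.27 and 2.66 in KO against 2.47 and 4.12 in WT. The female groups overlapped in this ratio and the male groups did not. It was not tested.

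A receptor gene, Igf2r, had the largest log2 fold change in males among the 10 genes. It had 257 and 166 CPM in male KO against 100.1 and 50.9 CPM in male WT, with 132 and 233 CPM in female KO against 189 and 145 CPM in female WT. Both male KO libraries lay above both male WT libraries, and the female groups overlapped. In males the fold was 2.80 (95% interval 1.44 to 5.44; log2 fold change 1.49, SE 0.42), with an adjusted p of 0.247 in edgeR, 0.0181 in DESeq2 and 0.252 in limma voom. Leaving out 1 library moved the log2 fold change between 1.08, without male WT 2, and 2.06, without male WT 1. Female KO over WT gave 0.13 (SE 0.41, adjusted p = 0.911), and the fit of all 8 libraries gave 0.81 (SE 0.37, adjusted p = 0.743). Igf1r, the signalling receptor, had 84.5 and 58.6 CPM in male KO against 44.3 and 45.8 CPM in male WT. In females it had 58.1 and 71.1 CPM in KO against 62.5 and 47.0 CPM in WT. All 4 KO libraries lay above 3 of the 4 WT libraries, but female WT 1 lay above 2 KO libraries. The log2 fold change of Igf1r was 0.67 in males (SE 0.26, unadjusted p = 0.0313, adjusted p = 0.305) and 0.45 over both sexes (SE 0.20, unadjusted p = 0.0452, adjusted p = 0.728). With the length correlation of the libraries in the fit the value over both sexes was 0.20, and with their mitochondrial share it was 0.31. Of the marker lists, cartilage was nearest to Igf1r, and its 15 genes, none at 0, summed to 17990 to 35277 CPM in male KO against 9987 to 14523 CPM in male WT and to 16682 to 25748 CPM in female KO against 8346 to 16461 CPM in female WT. Its part in the Igf1r values was not tested.

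**Figure D2:**
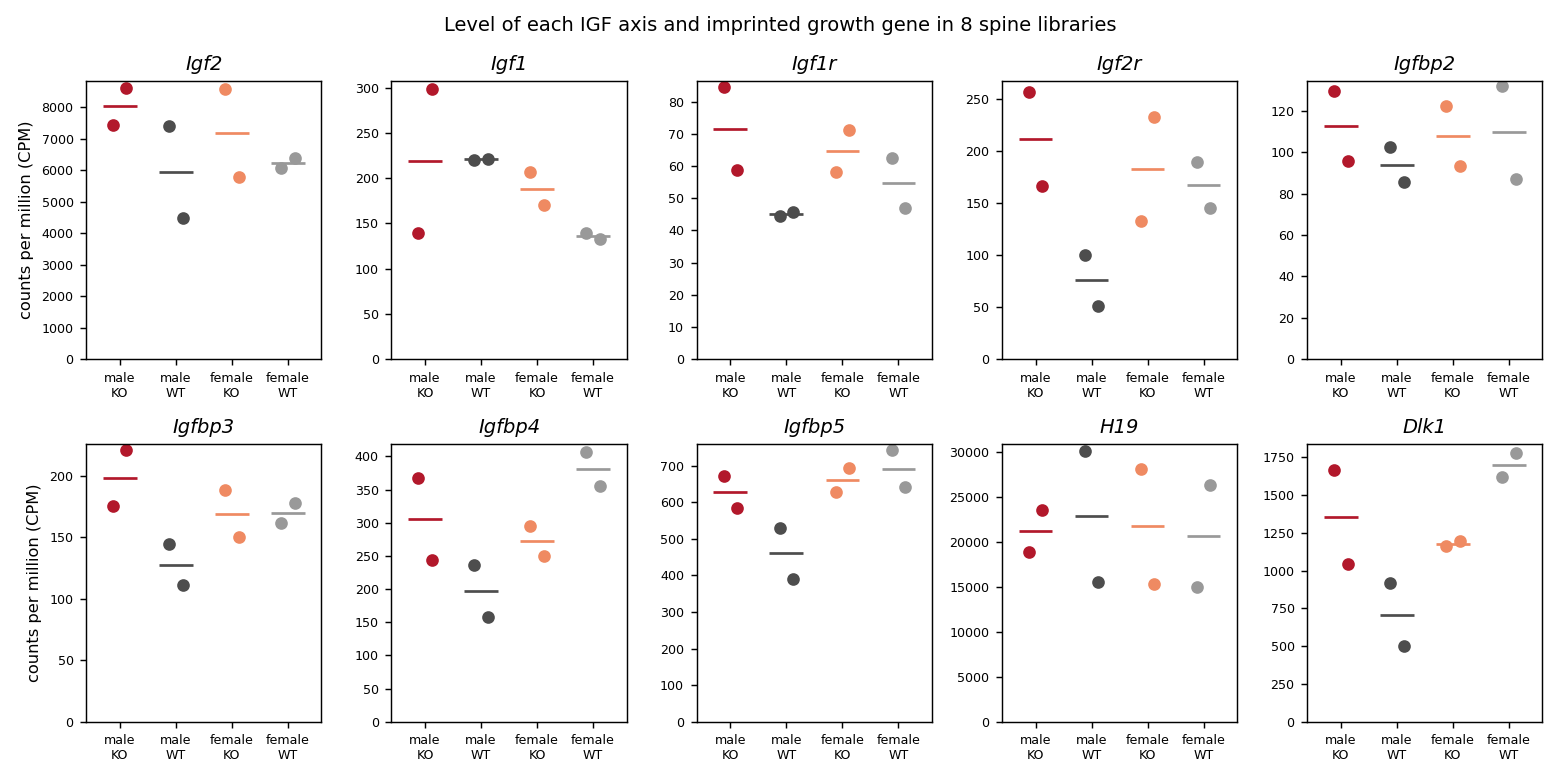
CPM of each gene in each library (points) with the mean of each group of 2 (bars), in panels that start at 0. Igf2r is higher in both male KO libraries (257 and 166 CPM) than in both male WT libraries (100.1 and 50.9 CPM), and Dlk1 and Igfbp4 are lowest in male WT and highest in female WT by group mean.

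The level of Igf2r also moved with the mitochondrial share of the libraries. Ordered by that share, the 4 libraries at 7.27% or below had 145 to 257 CPM of Igf2r and those at 13.6% or above had 50.9 to 166 CPM. Airn ran the other way, with 7.88 to 10.6 CPM in the 4 libraries of low mitochondrial share and 22.6 to 27.0 CPM in the others. Kcnq1ot1, an imprinted non-coding RNA on chromosome 7, was split in the same way. It had 9.34 to 14.2 CPM in the 4 libraries of low mitochondrial share and 30.1 to 59.6 CPM in the others. The split was thus not particular to Airn. These libraries also differed in length correlation, the rank correlation across genes between exon length and centred log2 CPM. Each gene was centred on its mean over the 8 libraries, so the value is relative to the other libraries. The value was 0.324 and 0.439 in the libraries with most Igf2r, male KO 1 and female KO 2. It did not split the libraries as the mitochondrial share did. Female WT 1 (-0.0226) and female WT 2 (-0.133), also of low share, lay within the range of the libraries of high share (-0.322 to 0.0213). Taking the mitochondrial share as a covariate, the male log2 fold change of Igf2r was 0.71 (edgeR adjusted p = 0.462), and taking the length correlation it was 1.07 (adjusted p = 0.487). Both fits were added after the data were seen. Igf2r counts were 32.6 and 7.35 times those of Airn in male KO against 4.203 and 1.88 times in male WT, and 5.54 and 24.1 times in female KO against 17.8 and 16.6 times in female WT. Airn gave log2 fold changes of -0.74 in males (SE 0.52, adjusted p = 0.501) and 0.79 in females (SE 0.52, adjusted p = 0.591). The sources used here do not say whether the counting used the strand, so reads of Igf2r and Airn from their overlap may not have been told apart.

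**Figure D3:**
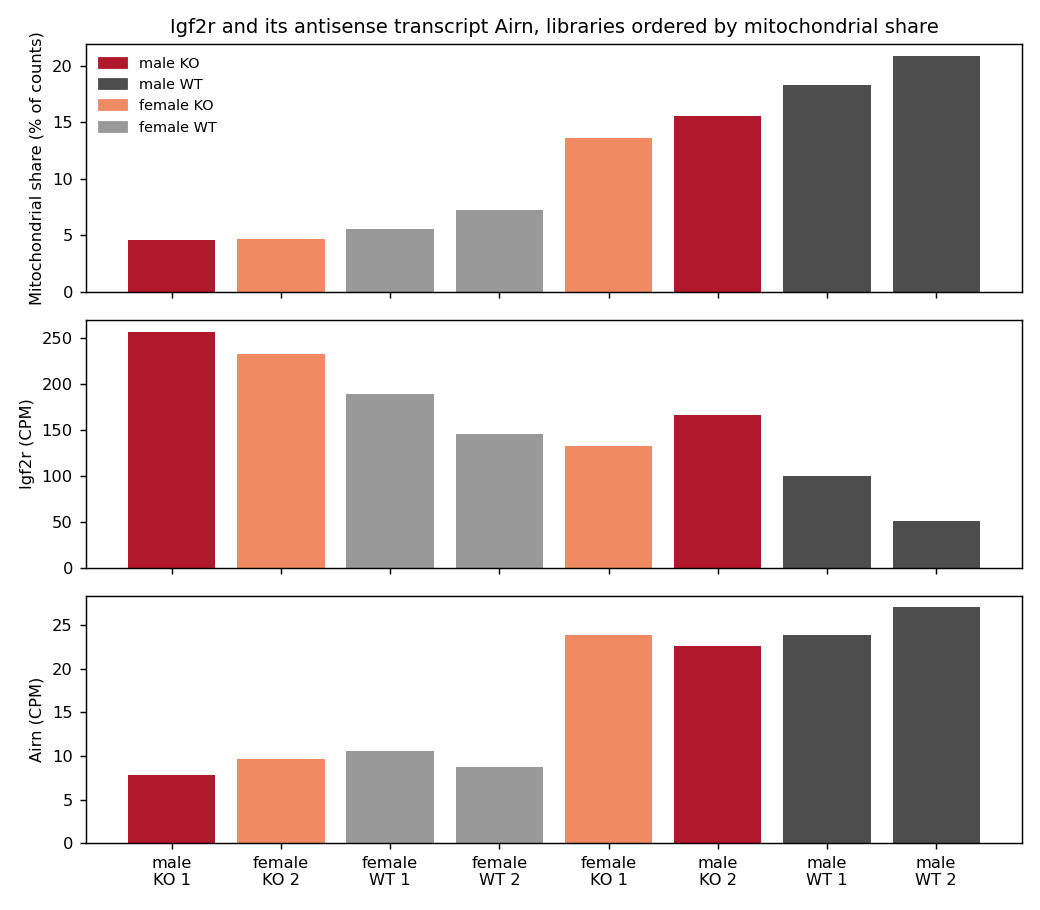
Mitochondrial share of counts (%), Igf2r (CPM) and Airn (CPM) in each library, with libraries ordered by mitochondrial share from left to right and bars coloured by group. Airn is at 7.88 to 10.6 CPM in the first 4 libraries and at 22.6 to 27.0 CPM in the last 4, while Igf2r is highest at the left and lowest in male WT 2 at the right.

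The binding proteins were expressed together, and Igfbp5 led them in every library. Summed per length, Igfbp2 to Igfbp5 gave 351 and 296 CPM per kilobase in male KO against 265 and 199.5 for the male WT pair, and 324 and 291 in female KO against 369 and 314 in female WT. Igfbp5, which lies 5.59 kb from Igfbp2 on chromosome 1 in the opposite orientation, made up 31.9% to 39.7% of that sum. Igfbp4, the substrate of the protease PAPPA, had 368 and 244 CPM in male KO against 236 and 158 CPM in male WT. In females it had 295 and 249.6 CPM in KO against 407 and 356 CPM in WT. KO thus lay above WT in males and below WT in females, without overlap in either sex. The log2 fold change of Igfbp4 was 0.63 in males (SE 0.32, adjusted p = 0.382) and -0.49 in females (SE 0.32, adjusted p = 0.595). Igfbp3, the main carrier of IGFs in serum, had 175 and 221 CPM in male KO against 145 and 111 CPM in male WT, with 188 and 151 CPM in female KO against 162 and 178 CPM in female WT. Its groups did not overlap in males, where the log2 fold change was 0.63 (SE 0.27, unadjusted p = 0.0427, adjusted p = 0.324), and overlapped in females (-0.0043, SE 0.26). Igfbp5, a binding protein of bone and muscle, had 672 and 585 CPM in male KO against 529.6 and 391 CPM in male WT, with 628 and 694 CPM in female KO against 742 and 641 CPM in female WT. The male groups did not overlap, and the log2 fold change was 0.45 there (SE 0.31, adjusted p = 0.496) and -0.065 in females (SE 0.31).

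Igfbp2, a binding protein of many fetal tissues, was the steadiest of the 10 genes, with 85.6 to 132 CPM over all libraries and overlapping groups in both sexes. Its log2 fold change was 0.26 in males (SE 0.29) and -0.024 in females (SE 0.29). Its profile across the 8 libraries came closest to those of Foxc2, a forkhead factor of the embryonic mesoderm, and of Pax1. The root-mean-square difference of log2 CPM, each gene centred on its own mean over the 8 libraries, was 0.0908 for Foxc2 and 0.101 for Pax1, the smallest values among 12604 genes with a mean of at least 5 CPM. These neighbours were looked at after their values were seen. Foxc2 had 18.48 and 11.4 CPM in male KO against 14.0 and 12.2 CPM in male WT, with 17.0 and 12.1 CPM in female KO against 16.3 and 11.6 CPM in female WT. In each of the 4 groups all 3 genes were higher in the library numbered 1, so the profiles are alike in differences within groups.

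**Figure D4:**
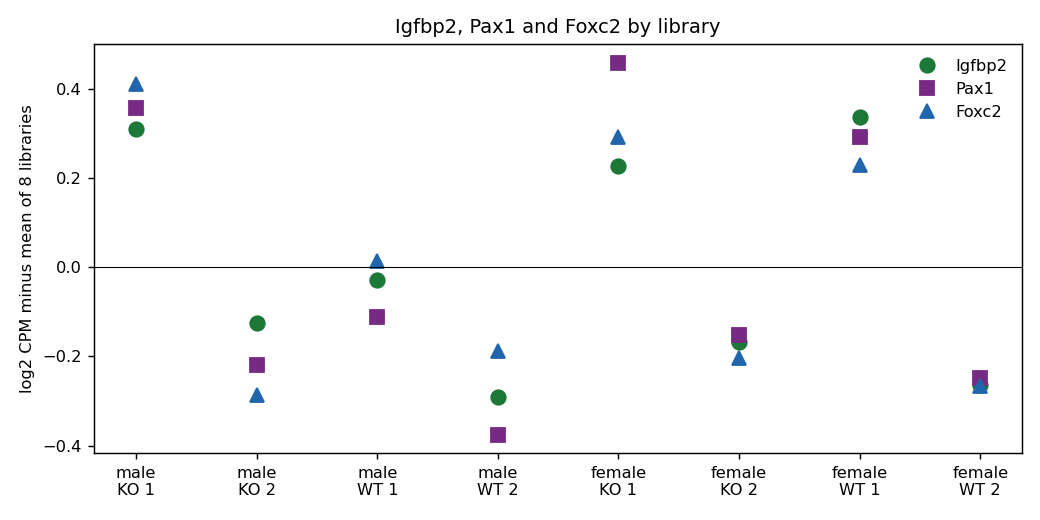
Log2 CPM of Igfbp2, Pax1 and Foxc2 in each library, minus the gene's own mean over the 8 libraries. In each group the 3 genes lie higher in the library numbered 1 than in the library numbered 2, with root-mean-square differences from Igfbp2 of 0.0908 for Foxc2 and 0.101 for Pax1.

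Dlk1, the paternally expressed gene of a Notch-like protein known from precursors of fat, muscle and other tissues, ran in opposite directions in the sexes. It had 1664 and 1046 CPM in male KO against 920.3 and 498 CPM in male WT, with 1162 and 1195 CPM in female KO against 1620.1 and 1776 CPM in female WT. The groups did not overlap in either sex. For Dlk1 the log2 fold change in males was 0.93 (SE 0.43, adjusted p = 0.347), that in females was -0.53 (SE 0.42, adjusted p = 0.646), and the joint value was 0.20 (SE 0.39). The male value was 0.47 with the mitochondrial share in the fit, 0.56 without male KO 1 and 1.45 without male WT 1. Meg3, the maternally expressed non-coding RNA 77.7 kb away in the same imprinted domain, had 491 and 788 CPM in male KO against 1067 and 843 CPM in male WT. In females it had 1089 and 784 CPM in KO against 523 and 411 CPM in WT. Meg3 was thus lower in both male KO libraries and higher in both female KO libraries than in their WT pair, with log2 fold changes of -0.58 (SE 0.38, adjusted p = 0.470) and 1.00 (SE 0.38, adjusted p = 0.532). Counts of Dlk1 were 3.39 and 1.33 times those of Meg3 in male KO against 0.862 and 0.591 times in male WT, and 1.07 and 1.52 times in female KO against 3.10 and 4.32 times in female WT.

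Markers of endothelial cells moved with Dlk1 and Igfbp4. Of 16 marker lists, that of endothelial cells had the profile nearest to Dlk1 (root-mean-square difference 0.214 on the centred log2 scale), Igfbp4 (0.200) and Igfbp5 (0.237). It was also the nearest list to Igf2r, but at a wide distance (0.479), with cartilage (0.544) and skeletal muscle (0.569) following. The single gene nearest to Igf2r, Sntb1, was at 0.184. All 10 endothelial markers were counted in every library. Their sum was 458 to 628 CPM in male KO against 258 to 434 CPM in male WT, and 438 to 481 CPM in female KO against 534 to 766 CPM in female WT. The 13 adipocyte markers, none at 0 in any library, summed to 497 to 757 CPM in male KO against 1147 to 5924 CPM in male WT and to 417 to 650 CPM in female KO against 989 to 6201 CPM in female WT. For Igf1 the nearest list was that of fibroblasts and tendon (0.197), whose sum was 6683 to 11423 CPM in male KO against 10830.4 to 12954 CPM in male WT and 6011 to 9643 CPM in female KO against 4711 to 5524 CPM in female WT. Skeletal muscle markers, all 15 counted in every library, summed to 34144 to 41548 CPM in male KO against 14934 to 33027 CPM in male WT and to 24392 to 33483 CPM in female KO against 18501 to 26793 CPM in female WT. Osteoblast markers, 12 genes with none at 0, came close behind cartilage for Igf1r (0.243 against 0.236). They were also the list nearest to Igfbp2 (0.286). That distance exceeded the SD of Igfbp2 itself (0.26), so it shows no likeness of the profiles. They summed to 11251 to 11706 CPM in male KO against 5796 to 8089 CPM in male WT and to 8182 to 9454 CPM in female KO against 6004 to 6775 CPM in female WT, so all 4 KO libraries lay above all 4 WT libraries. This was not particular to osteoblasts. The cartilage sums were split in the same way, and the adipocyte sums lay lower in all 4 KO than in all 4 WT libraries. The part of these tissues in the differences was not tested.

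Most of the 10 genes had higher values in male KO than in male WT spines, and none passed the threshold in edgeR. In males 8 of 10 log2 fold changes were positive, where 45.4% of all tested genes were, with a median of 0.54 against -0.063 over all genes. Of the 10, 7 were higher in both KO libraries than in both WT libraries, where 19.7% of all genes were, and 0 were lower, where 23.9% were. Igf2 was among the 7 only barely, with 7429 CPM in male KO 1 against 7422 CPM in male WT 1. At an unadjusted p under 0.05, 3 were higher (Igf2r, Igf1r and Igfbp3), where 7.53% of all genes were, and 0 were lower, where 7.29% were. DESeq2 called 1 of the 10, Igf2r, and limma voom called 0. The library male WT 2 had the lowest value of 7 of the 10 genes, where it had the lowest value of 3351 of the 18104 tested genes, and it also had the highest mitochondrial share and the lowest sum of muscle markers. Without male WT 2 the number at an unadjusted p under 0.05 was 0 and the median was 0.32, with 8 of 10 still positive. Without male WT 1 and female WT 2, the libraries rich in adipocyte transcripts, 10 of 10 were positive with a median of 0.81, and 2 had an unadjusted p under 0.05.

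**Figure D5:**
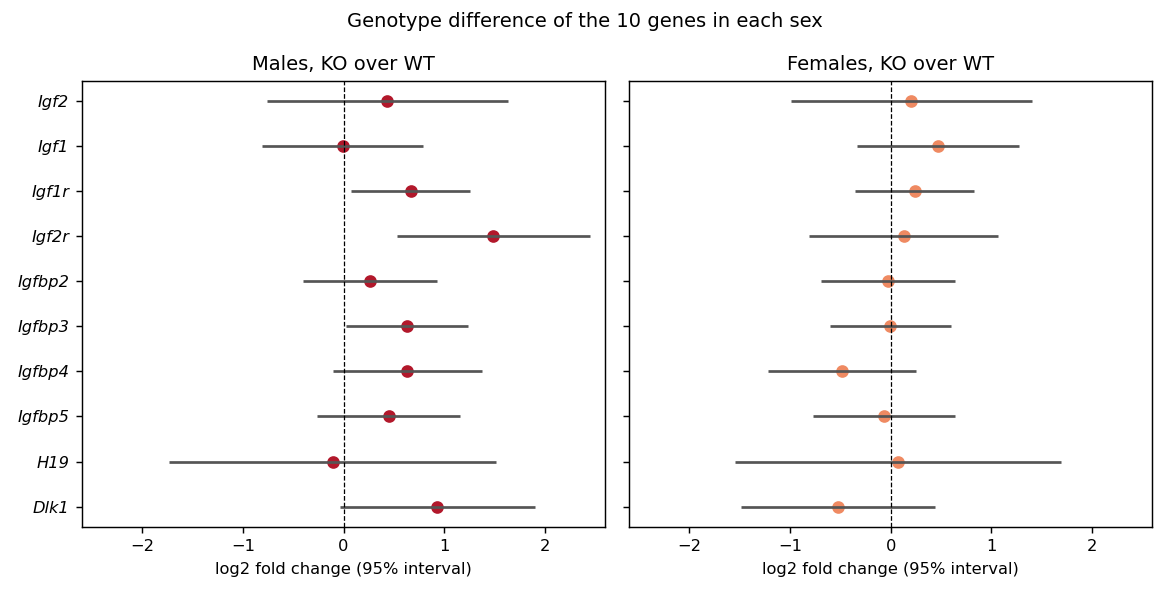
Log2 fold change of KO over WT for each of the 10 genes in males and in females (points) with 95% intervals from edgeR (lines). In males 8 of 10 points lie above 0 and Igf2r lies farthest (1.49), and in females 5 of 10 lie above 0.

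In females 5 of 10 log2 fold changes were positive, where 52.6% of all genes were, with a median of 0.033 against 0.031 over all genes. Only Igf1 was higher in both KO than in both WT libraries, where 25.9% of all genes were, and Igfbp4 and Dlk1 were lower, where 26.2% were. None had an unadjusted p under 0.05 in either direction, where 9.27% of all genes did, 4.53% higher and 4.74% lower. DESeq2 and limma voom called 0 of the 10. Over both sexes 9 of 10 were positive, where 48.9% of all genes were, the median was 0.22, and 1 (Igf1r) had an unadjusted p under 0.05, where 6.83% of all genes did. No gene of the 10 separated all 4 KO from all 4 WT libraries, where 1.68% of all genes were higher and 1.63% lower in that way. As a ratio of its bounds, the widest 95% interval of the fold over both sexes, that of H19, was 0.470 to 2.07, and the narrowest, that of Igf1r, was 1.01 to 1.86.

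The KO effect in females minus that in males was positive for 2 of the 10 genes, where 51.7% of all genes were, and negative for the other 8. It was -1.46 for Dlk1 (SE 0.60, unadjusted p = 0.0388), -1.36 for Igf2r (SE 0.59, unadjusted p = 0.0469) and -1.12 for Igfbp4 (SE 0.46, unadjusted p = 0.0384) on the log2 scale. The edgeR adjusted p was 0.287 for Dlk1 and for Igfbp4 and 0.295 for Igf2r, and none passed in DESeq2, where Dlk1 had 0.0800. Across all genes edgeR called 0 of 18104 (0%) for this difference and had 3031 (16.7%) at an unadjusted p under 0.05, 7.13% of all genes in the negative and 9.61% in the positive direction, while DESeq2 called 362 (2.04%). Genes higher in both male KO and lower in both female KO libraries than in their WT pair, as Dlk1 and Igfbp4 were, made up 6.09% of all tested genes (1102). Taking the mitochondrial share as a covariate, the difference was -0.86 for Dlk1, -0.40 for Igf2r and -0.72 for Igfbp4. In that edgeR fit 1 of the 10 genes had an unadjusted p under 0.05, where 2054 of 18104 genes did. Leaving out 1 library moved the difference for Dlk1 between -1.97, without male WT 1, and -1.09, without male KO 1. For Igf2r it ran between -1.93, without male WT 1, and -0.95, without male WT 2. For Igfbp4 it ran between -1.44, without male WT 1, and -0.79, without male KO 1.

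Between the sexes none of the 10 genes passed, where edgeR called 3 of 18104 genes (0.0166%), DESeq2 235 (1.3%) and limma voom 5 (0.0276%). Positive values stood in 7 of the 10, where 49.5% of all genes had them, and 0 had an unadjusted p under 0.05, where 8.67% of all genes did, 3.38% higher and 5.29% lower in females. The largest female minus male values were 0.53 for Dlk1 (SE 0.39, adjusted p = 0.595), 0.47 for Igf2r (SE 0.37, adjusted p = 0.619) and -0.46 for Igf1 (SE 0.26, adjusted p = 0.569). For every one of the 10 the female and male libraries overlapped, where 2.23% of all genes were higher and 1.88% lower in all female than in all male libraries. Igfbp1, the liver-borne binding protein 3.54 kb from Igfbp3, is named after its values were seen. It had 0.786, 1.21, 1.15 and 0.332 CPM in the female libraries (KO 1, KO 2, WT 1, WT 2) against 16.8, 2.86, 10.2 and 10.4 CPM in the male libraries in the same order. The female minus male value was -3.53 (SE 0.57), with an adjusted p of 0.204 in edgeR and 1.56e-08 in DESeq2. The 12 hepatocyte markers, none at 0 in any library, summed to 93.0 to 218 CPM in the female libraries against 159 to 1525 CPM in the male libraries, and their part in this difference was not tested.

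The rest of the pathway was read from a list of 30 further IGF genes, all of which were tested. Over both sexes 19 of the 30 log2 fold changes were positive with a median of 0.15, against -0.0077 over all genes. At an unadjusted p under 0.05, 3 were higher, where 2.84% of all genes were, and 1 lower, where 3.99% were, and edgeR called 0 at the adjusted threshold. Irs4, an adaptor that docks on the activated receptor, had 2.97 and 2.28 CPM in male KO against 5.52 and 4.27 CPM in male WT, with 2.32 and 3.57 CPM in female KO against 7.78 and 8.87 CPM in female WT. All 4 KO libraries lay below all 4 WT libraries, and the log2 fold change was -1.20 (SE 0.25), with an adjusted p of 0.510 in edgeR and 0.00304 in DESeq2. Pappa and Pappa2 encode proteases that free IGFs from binding proteins. Pappa had 20.5 and 17.3 CPM in male KO against 7.82 and 11.6 CPM in male WT, with 9.12 and 13.8 CPM in female KO against 6.88 and 6.73 CPM in female WT. Male WT 2 lay above female KO 1, and the log2 fold change was 0.86 (SE 0.21; adjusted p = 0.526 in edgeR and 0.0387 in DESeq2).

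Pappa2, the related protease whose known substrates include IGFBP5, had 11.8 and 7.32 CPM in male KO against 4.73 and 4.199 CPM in male WT, with 7.03 and 8.68 CPM in female KO against 5.83 and 5.07 CPM in female WT. All 4 KO libraries lay above all 4 WT libraries (log2 fold change 0.81, SE 0.23, adjusted p = 0.621). The PAPPA inhibitor Stc2 was separated in the same way (0.53, SE 0.20, adjusted p = 0.694), with 7.12 to 8.21 CPM in KO against 4.66 to 7.003 CPM in WT. Of the 30 genes, 2 were higher in all 4 KO libraries, where 1.68% of all genes were, and 1 (Irs4) was lower, where 1.63% were. The other genes with the smallest p over both sexes were Igfbpl1 (-0.72, SE 0.35) and Insr, the insulin receptor (0.31, SE 0.16). In males Irs2, the adaptor of insulin and IGF signalling, had 25.9 and 15.2 CPM in KO against 5.65 and 6.51 CPM in WT. Its log2 fold change was 1.76 (SE 0.31), with an adjusted p of 0.184 in edgeR, 0.0376 in edgeR with no filter on low counts and 2.06e-04 in DESeq2. In females it had 8.94 and 12.7 CPM in KO against 15.9 and 15.2 CPM in WT. The male values of Pappa2 (1.10, SE 0.29), Pappa (0.96, SE 0.29) and Gpc3, a glypican that restrains growth (1.05, SE 0.34), came next, and of these DESeq2 called Pappa2 (adjusted p = 0.0417). In females the smallest p belonged to Irs4 (-1.495, SE 0.32, DESeq2 adjusted p = 0.00780), Akt2, a kinase of the pathway (-0.96, SE 0.34), Pappa (0.75, SE 0.29) and Stc2 (0.68, SE 0.27). In females 7 of the 30 had an unadjusted p under 0.05, 4 higher, where 4.53% of all genes were, and 3 lower, where 4.74% were, and 1 did without female KO 2 or without the libraries rich in adipocyte transcripts.

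A list of 30 further imprinted genes, all tested, shares Grb10 with the list of IGF genes. It gave 18 positive log2 fold changes over both sexes, where 48.9% of all genes were positive, with a median of 0.071. At an unadjusted p under 0.05, 2 were higher, where 2.84% of all genes were, and 0 lower, where 3.99% were, and edgeR called 0 at the adjusted threshold. That count of 2 was 0 without male KO 2 and 4 without male KO 1. Zim1, a zinc finger gene of the Peg3 domain, had 101 and 124 CPM in male KO against 52.0 and 67.5 CPM in male WT, with 100.2 and 117 CPM in female KO against 94.4 and 93.2 CPM in female WT. Plagl1, a zinc finger factor of fetal growth, had 569 and 757 CPM in male KO against 451 and 374 CPM in male WT, with 759 and 547 CPM in female KO against 532 and 449 CPM in female WT. For both genes all 4 KO libraries lay above all 4 WT libraries, with log2 fold changes of 0.56 (SE 0.20, adjusted p = 0.683) and 0.55 (SE 0.23, adjusted p = 0.726). These were the only 2 of the 30 higher in that way, where 1.68% of all genes were, and 0 were lower, where 1.63% were. Phlda2 (-0.94, SE 0.42), Peg3 (0.64, SE 0.30), Rtl1 (0.54, SE 0.30) and Dio3 (-0.52, SE 0.31) followed by p, and Phlda2 and Dio3 were counted at no more than 1.48 CPM.

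In males 13 of the 30 imprinted genes were positive, where 45.4% of all genes were, 7 were higher without overlap, where 19.7% of all genes were, and 10 lower, where 23.9% were. Peg3, a paternally expressed zinc finger gene, had 451 and 344 CPM in male KO against 161 and 164 CPM in male WT, with 314 and 409.7 CPM in female KO against 400.1 and 325 CPM in female WT. The male log2 fold change of Peg3 was 1.29 (SE 0.30), with an adjusted p of 0.228 in edgeR and 0.00110 in DESeq2, and that of Zim1 was 0.91 (SE 0.24; 0.239 in edgeR and 0.0308 in DESeq2). Nnat (-0.98, SE 0.31) and Zrsr1 (-0.69, SE 0.23) were next by p, and neither was called by DESeq2. At an unadjusted p under 0.05, 8 of the 30 were counted in males, 3 higher, where 7.53% of all genes were, and 5 lower, where 7.29% were. Without male WT 2 the count was 2. In females 19 of 30 were positive, where 52.6% of all genes were, and the smallest p belonged to Meg3 (1.00, SE 0.38), Usp29 (0.68, SE 0.26), Nap1l5 (0.85, SE 0.32) and Zrsr1 (0.55, SE 0.23), all with an adjusted p of at least 0.532. In females 4 of the 30 had an unadjusted p under 0.05, where 9.27% of all genes did, and 0 did without female WT 2. Meg3, Usp29, Nap1l5 and Zrsr1 each lay below their WT pair in both male KO libraries and above it in both female KO libraries. Of all tested genes, 8.15% were arranged in this way. These 4 genes were named for their small p and had positive values in females, so the female part of the arrangement follows largely from that choice. The share of all genes is therefore no fair comparison for them.

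Among the 10 genes, Igf2 and Igfbp3 had the most alike profiles over the 8 libraries (root-mean-square difference 0.157 on the centred log2 scale), followed by Dlk1 and Igfbp4 (0.196), while Igf2 and H19 differed by 0.280. Over all tested genes with a mean of at least 5 CPM, the nearest to Igf2 were Pdlim3 (0.127), Tpm3 (0.137) and Irgm2 (0.138). The nearest to H19 were Chmp2a (0.143), Frg1 (0.178) and C1qtnf9 (0.186). Dlk1 was nearest to Mef2d (0.105), Jph2 (0.114) and Dnmbp (0.116), and Igf1 to Tmem87a (0.0789), Golph3l (0.0795) and Zfp141 (0.0851). These values describe 8 libraries that share their depth and tissue makeup across all genes. In spread, Igf2r stood at the 94.1 percentile of the 12605 genes at that level (SD of log2 CPM 0.75) and Dlk1 at the 87.9 percentile (SD 0.60), whereas Igfbp2 stood at the 28.4 percentile (SD 0.26).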

How the data were processed

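The authors deposited 1 table of whole-number counts per gene for the 8 libraries, not normalised. RNA was taken up in TRIzol from crushed frozen spines and libraries came from a stranded mRNA kit, per the labels' protocols. FastQC, MultiQC, HISAT2, featureCounts and mm10 are named in the submitters' processing notes, with no order or settings. The sources used here give no gene annotation, strand setting or treatment of reads matching several places. Entrez IDs took symbols from RefSeq (25275) and GENCODE (18), and 1886 stayed unnamed.

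Low-count genes were dropped with filterByExpr (minimum count 10) and libraries scaled by TMM in edgeR 4.0.16 (R 4.3.3). A quasi-likelihood model with a mean for each of the 4 groups (residual df 4) gave the effects within a sex and their difference. A model adding sex to genotype (residual df 5) gave the effects over all libraries. Each difference is KO minus WT, or female minus male. Tests are two-sided, adjusted p-values are Benjamini-Hochberg over 18104 genes, and the threshold was 0.05. The biological coefficient of variation was 27.8%, and the median SE of a log2 fold change was 0.32 in each sex and 0.26 over both. DESeq2 1.42.0 and limma 3.58.1 (voom) were alternatives, among other scalings, filters and left-out libraries. Per-length levels divide by the exon length in the annotation given here, and log2 CPM used a prior count of 2. Scripts were tested on simulated data.

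The 10 members and all lists were chosen with earlier results of these data known. Of each further list, up to 6 genes with the smallest p over both sexes and up to 4 in each sex are named, with the 3 genes most alike for Igf2, H19, Dlk1 and Igf1. Replicate libraries were no duplicates (chi-square over df of 131 to 645), and all 8 were kept. Floors of 3 counts cover counting error only.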

Additional observations from a re-analysis of the deposited data

Results flagged for a closer look

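In Igf1r, the library female WT 1 (62.5 CPM) stood apart from the other 3 WT libraries (44.3 to 47.0 CPM). On the log2 scale its gap to the nearest was 0.82916 of the range of the 4 WT libraries, barely past the limit for 4 samples. Chance sets apart about 1 in 20 such groups.

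For Dlk1 both male KO libraries lay above both male WT libraries and both female KO libraries below both female WT libraries. The difference of the effects was tested and did not pass: the effect in females minus that in males was -1.46 (edgeR adjusted p = 0.287). Igfbp4 showed the same arrangement, with a difference of -1.12 (adjusted p = 0.287). Of all tested genes, 6.09% were arranged in this way.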

How the results depend on the processing

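Settings other than those of the report were another scaling, no filter, DESeq2, limma voom, mitochondrial genes left out, a replicate block, the libraries of 1 sex and each library left out. Chosen after seeing the data were covariates of mitochondrial share and of length correlation, and leaving out the adipocyte-rich pair male WT 1 and female WT 2. All 10 genes were followed, except between the sexes, where only the 3 with the largest values were. Over all settings, 723 of 794 values kept their direction and their side of the threshold, 70 reversed, and 1 (Igf2r in males, DESeq2) passed it. The cause of the changes was not tested.

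Genes called in males numbered 0 in edgeR, 39 with no filter and 481 in DESeq2. In females they numbered 0, with 144 in DESeq2, 2 with the mitochondrial covariate and 24 without the adipocyte-rich pair. Over both sexes DESeq2 called 141. The sex-by-genotype difference had 362 in DESeq2, 1 with no filter and 1 without that pair. Between the sexes 3 were called, 12 with no filter, 235 in DESeq2, 5 in voom, 7 with the mitochondrial and 5 with the length covariate. Leaving out 1 library gave 0 to 0 in males, 0 to 33 in females (33 without female WT 2), 0 to 0 over both, 0 to 9 for the difference (9 without female WT 2) and 2 to 35 between the sexes (35 without male KO 2).

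The log2 values that reversed were as follows. For Igf1 in males they were 0.023 with DESeq2 size factors and in DESeq2, 0.013 with upper-quartile scaling, 0.00903 with no filter, 0.043 without mitochondrial genes, 0.041 with male libraries only, 0.55 and 0.27 with the mitochondrial and length covariates, and 0.042 without the adipocyte-rich pair. With the mitochondrial covariate H19 was 0.33 in males, -0.10 in females, 0.071 over both and -0.43 for the difference, Igfbp2 in females 0.027, Igfbp4 over both -0.098, Dlk1 over both -0.044, Igf1 -0.27 and Igf1r 0.12 for the difference, and Igf2r -0.21 and Igf1 0.0065 between the sexes. With the length covariate H19 was 0.59 in males, 0.47 over both and -0.20 for the difference, Igf2r -0.11, Igfbp2 0.00827 and Igfbp3 0.14 in females, and Igfbp4 -0.030 and Dlk1 -0.00212 over both. Without the adipocyte-rich pair H19 was 0.50 in males and 0.52 over both, and Igf2r -0.066 and Igfbp3 0.058 in females. Upper-quartile scaling gave Igfbp2 0.0060 and Igfbp3 0.032 in females and H19 0.017 over both. Voom gave Igfbp2 0.00471 in females and H19 0.012 over both, and H19 over both was 0.011 without mitochondrial genes.

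Leaving out 1 library moved, in males, Igf1 between -0.66 and 0.44 and H19 between -0.50 and 0.45. In females it moved Igf2 between -0.11 and 0.46, H19 between -0.43 and 0.53, Igf2r between -0.33 and 0.48, Igfbp2 between -0.30 and 0.30, Igfbp3 between -0.17 and 0.15 and Igfbp5 between -0.18 and 0.035. Over both sexes H19 ran between -0.23 and 0.22, Igfbp2 between -0.0027 and 0.29, Igfbp4 between -0.16 and 0.27 and Dlk1 between -0.11 and 0.40. For the difference Igf2 ran between -0.64 and 0.087, H19 between -0.38 and 0.61 and Igfbp2 between -0.59 and 0.0094.

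The labels' replicate numbers did not pair the libraries: deviations of same-numbered libraries correlated at -0.53 to 0.18. With them as a block, edgeR called 0 genes in each KO comparison and 2 between the sexes, Igf2r in males was 1.502 (adjusted p = 0.394), and no call among the 10 genes changed.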

Other observations

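Genes from the imprinted list outside the 10 were among the abundant genes of these spines. The counts are of whole genes, so they do not show which transcript or parental allele they came from. Gnas, the gene of a stimulatory G protein subunit, averaged 3028 CPM over the 8 libraries, Cdkn1c, an inhibitor of the cell cycle, 1104 CPM, and Mest 1071 CPM. Grb10, an adaptor that restrains signalling by the insulin and IGF receptors, averaged 788 CPM. These genes were chosen after their values were seen.

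Cdkn1c had 728 and 1036 CPM in male KO against 1415 and 832 CPM in male WT, with 1476 and 848 CPM in female KO against 1418 and 1080.0 CPM in female WT, with overlapping groups in both sexes (log2 fold change -0.35, SE 0.44, in males and -0.10, SE 0.44, in females). Grb10 had 727 and 883 CPM in male KO against 672 and 529 CPM in male WT, with 868 and 894 CPM in female KO against 948 and 782 CPM in female WT (0.42, SE 0.32, and 0.027, SE 0.32).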
